A study of Mus musculus with 3 samples.

Results

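Translation initiation factors were examined as a group of 53 genes among 21901 mouse genes with at least 1 transcript of the protein-coding class. Members were the genes with such a transcript whose symbol begins with Eif1 to Eif6, leaving out Eif2ak2, Eif1ay and Eif2s3y. The RNA had been taken from the chromatin fraction of bone marrow-derived macrophages of the mouse strain C57BL/6J, which had received lipid A at 100 ng/ml for 50 min. Lipid A is the part of bacterial lipopolysaccharide that macrophages sense. The 3 ribosomal RNA-depleted libraries formed 1 group of 3 biological replicates, which shared a donor code in the labels, so the spread between them may be technical as well as biological. Neither untreated cells nor other times or fractions entered the comparison, and no test between conditions was possible, so every value below is a description.

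Translation of most mRNAs starts when the eIF4F complex binds the cap at the end of the message. In that complex eIF4E holds the cap, the helicase eIF4A unwinds the leader, and the scaffold eIF4G joins both to the ribosome through eIF3. The small ribosomal subunit carries eIF1, eIF1A, eIF3, eIF5 and the eIF2 complex that delivers the initiator tRNA. eIF2B recharges eIF2 with GTP, stress-activated kinases block that step by phosphorylating eIF2, and eIF4E-binding proteins compete with eIF4G for eIF4E. Macrophages are known to adjust several of these steps after bacterial stimuli. Chromatin RNA holds nascent and still unspliced transcripts, so its levels describe the genes' RNA on chromatin and not the amount of message or protein in the cytoplasm.

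Starting RNA was 1000, 250 and 500 ng for replicates 1, 2 and 3. The libraries held 10496703, 17687379 and 14806118 gene-level expected counts, of which 36244, 54517 and 43136 fell on the 53 members, or 0.345%, 0.308% and 0.291%. Replicate 1 stood apart in composition: genes at rDNA-like loci took 9.1% of its gene-level expected counts, against 22.7% and 21.7% in replicates 2 and 3. All 10 macrophage markers were detected, at 1.88 to 178.7 TPM, with summed levels of 653.9, 716.5 and 859.9 TPM. Of 32 markers of other blood, stromal and vessel cells, 3 were detected and 13 were at 0 counts, with summed levels of 22.3, 11.1 and 17.6 TPM. In bulk RNA, fewer cells of a type and less RNA per cell cannot be told apart. The part of these library differences in the results below was not tested.

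Most initiation factor genes had RNA on chromatin. With detection set at 10 or more expected counts in each library, 46 of the 53 members (86.8%) were detected, against 44.1% of all genes with a protein-coding transcript. The 7 others were Eif1b, Eif2b1, Eif2b3, Eif3j2, Eif4e1b, Eif4ebp1 and Eif5a2. The median member stood at 7.1, 4.83 and 6.29 TPM in replicates 1, 2 and 3, a mean of 6.07 ± 1.15 TPM (SD, n = 3), while the median over all genes was 0.217 ± 0.0351 TPM. Among detected genes only, the medians lay closer, at 7.93 ± 1.04 TPM for members and 4.83 ± 0.62 TPM for all genes (SD, n = 3 each). TPM is a level scaled by transcript length and library total, so it allows genes to be compared with each other. The authors deposited 2 quantifications of the same libraries, and values are from the first unless the second is named.

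**Figure D1:**
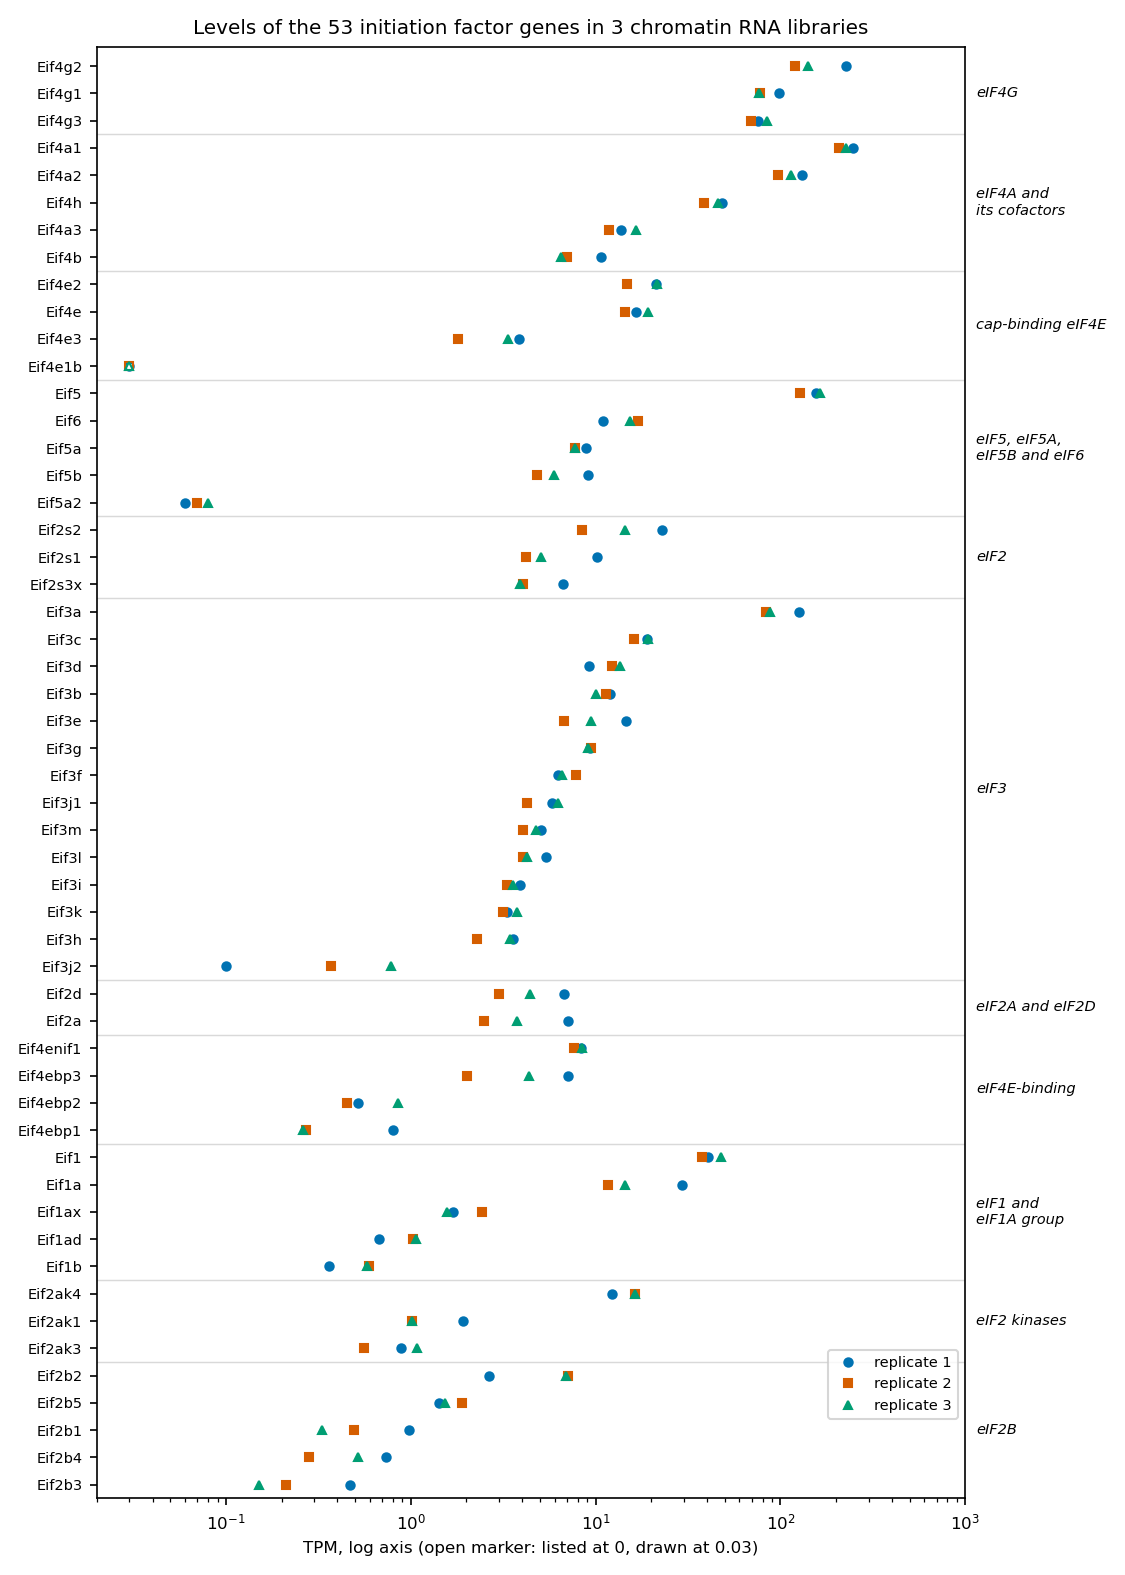
TPM of each of the 53 initiation factor genes (rows, grouped by function) in each of the 3 libraries, on a log axis; points are single libraries and open markers are values listed at 0. The eIF4A and eIF4G genes, Eif5 and Eif3a reach 69 TPM or more in every library except for Eif4a3, while 3 of the 5 eIF2B genes and several paralogs lie below 1 TPM in every library.

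Abundance was concentrated in a few genes. The 7 members above 50 TPM were Eif4a1, Eif4g2, Eif5, Eif4a2, Eif3a, Eif4g1 and Eif4g3, while 13 members lay between 10 and 50 TPM and 11 lay below 1 TPM. The eIF4A genes with their cofactors held 31.9% of the summed member TPM, the eIF4G genes 25.3%, the eIF3 genes 15% and the eIF5 to eIF6 group 14%. Each of the other 7 groups held 4.99% or less.

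In the first quantification the helicase eIF4A led the list. In the second, Eif4g2 came 1st with a mean of 345.0 TPM and Eif4a1 2nd with 274.4 TPM. Eif4a1 (ENSMUSG00000059796.16, chr11:69666936-69672423, minus strand, mm10) had 247.2, 208.6 and 227.0 TPM, a mean of 227.6 ± 19.3 TPM (SD, n = 3). Its paralog Eif4a2, which encodes a related helicase, had 131.3, 97.1 and 114.7 TPM, so the libraries of the pair did not overlap. Eif4a3, the paralog that works in the exon junction complex after splicing rather than in initiation, had only 13.8, 11.8 and 16.6 TPM. The coding sequences of Eif4a1 and Eif4a2 were identical at 78% of aligned bases, with no identical run above 20 bases, and the assignment error that the authors deposited, the posterior SD of the count, was 0.139% and 0.105% of their counts. The RNA-binding cofactors that stimulate the helicase followed lower, Eif4h at 48.2, 38.4 and 46.0 TPM and Eif4b at 10.7, 6.99 and 6.5 TPM.

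All 3 scaffold genes were abundant. Eif4g2, whose product lacks the eIF4E-binding region and serves alternative initiation, had 226.8, 120.6 and 140.8 TPM. By mean level it was the 2nd member in the first quantification. Eif4g1, the main scaffold, had 98.1, 77.9 and 76.8 TPM. Eif4g3, its close paralog, had 75.6, 69.0 and 84.4 TPM, and its libraries overlapped those of Eif4g1. Eif4g3 spans 215487 bases on chromosome 4 and Eif4g1 spans 24572 bases on chromosome 16. The near-equal levels over all transcripts thus came from genes of very different size. Over transcripts of the protein-coding class alone the libraries did not overlap. Eif4g3 then had 60.6, 60 and 73.8 TPM and Eif4g1 42.4, 39.2 and 39.7 TPM.

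In the first quantification the cap-binding genes lay below the scaffolds and the helicase genes Eif4a1 and Eif4a2. In the second, Eif4e averaged 94.8 ± 15.5 TPM, beside 91 ± 5.31 TPM for Eif4g3 (SD, n = 3 each), so that order does not hold for Eif4e. Eif4e2, a cap-binding homolog linked to repression, had 21.1, 14.7 and 21.5 TPM. Eif4e, the canonical cap-binding factor, had 16.6, 14.4 and 19.3 TPM, and both genes overlapped in level. Eif4e3 had 3.86, 1.8 and 3.37 TPM, and it lies inside Gm20696 on the same strand, so their reads may be shared. Eif4e1b, known as an oocyte form, had 0 counts in all 3 libraries of the first quantification. By counting error alone that allows up to 3 counts in each. The second quantification gave it 155.9, 255.9 and 202.5 estimated counts in replicates 1, 2 and 3, so its absence is not established.

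The eIF4E-binding group had a median of 2.59 ± 1.36 TPM (SD, n = 3), and of 12.2 TPM in the second quantification. Eif4ebp1, the best-known target of mTOR among them, had 19, 12 and 8 expected counts or 0.8, 0.27 and 0.26 TPM. Eif4ebp2 had 0.52, 0.45 and 0.85 TPM. Eif4ebp3 had 7.1, 2.02 and 4.35 TPM, but it lies inside another annotated gene on the same strand, AC115631.1, and its assignment error was 22.6% of its count. Eif4enif1, the transporter that carries eIF4E into the nucleus, was the highest of the group at 8.29, 7.6 and 8.46 TPM.

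Within eIF3, the scaffold of the small subunit, 1 subunit stood far above the rest. Eif3a had 125.8, 83.2 and 87.7 TPM, a mean of 98.9 ± 23.4 TPM, and the next subunit, Eif3c, had 18.1 ± 1.77 TPM (SD, n = 3 each). The median over the 14 eIF3 genes was 5.99 ± 0.471 TPM. The remaining 12 genes had means of 0.417 to 11.7 TPM, although the products of most of these genes sit together in 1 complex. The lowest, Eif3j2, is a single-exon gene whose coding sequence matched Eif3j1 at 100.0% of aligned bases. Eif3j1 had 5.82, 4.24 and 6.29 TPM and Eif3j2 0.1, 0.37 and 0.78 TPM, with an assignment error of 38.8% of the Eif3j2 count, so the split between them is uncertain.

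Factors that find and check the start codon also differed widely in level. Eif5, which makes eIF2 hydrolyse its GTP, had 156.6, 127.5 and 164.6 TPM. Eif1, the guard of start-codon choice, had 40.3, 37.7 and 47.8 TPM, against 0.36, 0.59 and 0.58 TPM for its paralog Eif1b. Eif1a had 29.5, 11.7 and 14.4 TPM and its X-linked paralog Eif1ax 1.7, 2.44 and 1.57 TPM. Eif5a, which helps the ribosome past difficult peptide bonds, had 8.86, 7.74 and 7.76 TPM, while Eif5a2 had 0.06, 0.07 and 0.08 TPM.

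Levels of the eIF2 subunits overlapped those of some of their regulators. Eif2s2, the beta subunit, had 23.0, 8.43 and 14.4 TPM, Eif2s1, the alpha subunit that is phosphorylated under stress, 10.2, 4.19 and 5.06 TPM, and Eif2s3x, the gamma subunit, 6.69, 4.05 and 3.91 TPM with an assignment error of 3.87%. The 5 eIF2B genes had a median of 0.663 ± 0.275 TPM, the lowest of the 11 group medians, with Eif2b2 highest at 5.54 ± 2.5 TPM and Eif2b3 lowest at 0.277 ± 0.17 TPM (SD, n = 3 each). Among the eIF2 kinases, Eif2ak4, the sensor of amino acid shortage, had 12.3, 16.3 and 16.3 TPM, close to Eif2s2 in mean level. Eif2ak3, the kinase of the unfolded protein response in the endoplasmic reticulum, had 0.88, 0.56 and 1.08 TPM, and Eif2ak1, the heme-regulated kinase, 1.91, 1.01 and 1.02 TPM.

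Other genes of translation were set beside the members. Of 34 gene identifiers for elongation, termination and control of initiation, 30 were detected, with a median of 10.2 ± 1.93 TPM, and of 77 cytoplasmic ribosomal protein genes 76 were detected, with a median of 12.3 ± 0.49 TPM (SD, n = 3 each). Eef1a1, the elongation factor that brings aminoacyl-tRNA, averaged 282.8 TPM and Pabpc1, the poly(A)-binding partner of eIF4G, 173.1 TPM. The highest ribosomal protein gene, Rpl23, averaged 77.7 TPM, so the 6 leading initiation factor genes stood above all 77 in mean level.

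Of the 7 members above 50 TPM, 6 shared a feature of gene structure, and Eif4g3 did not. Small nucleolar RNAs (snoRNAs), which guide modification and processing of ribosomal and other RNAs, are mostly cut from introns of host genes. Of the 46 detected members, 7 (15.2%) contain an annotated snoRNA gene on their own strand, against 2.03% of all 9648 detected genes with a protein-coding transcript. They were Eif4a1, Eif4g2, Eif5, Eif4a2, Eif3a, Eif4g1 and Eif2ak3, so the 6 most abundant members were all hosts. The 7 hosts had a median of 114.4 TPM, the 39 other detected members 6.62 TPM. Among all detected genes, hosts had a median of 10.2 TPM and the others 4.8 TPM. There, 26 of 196 hosts and 771 of 9452 others were at 50 TPM or more. When only transcripts of the protein-coding class were summed, the hosts' median was 40.4 TPM and that of the other detected members 3.31 TPM.

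**Figure D2:**
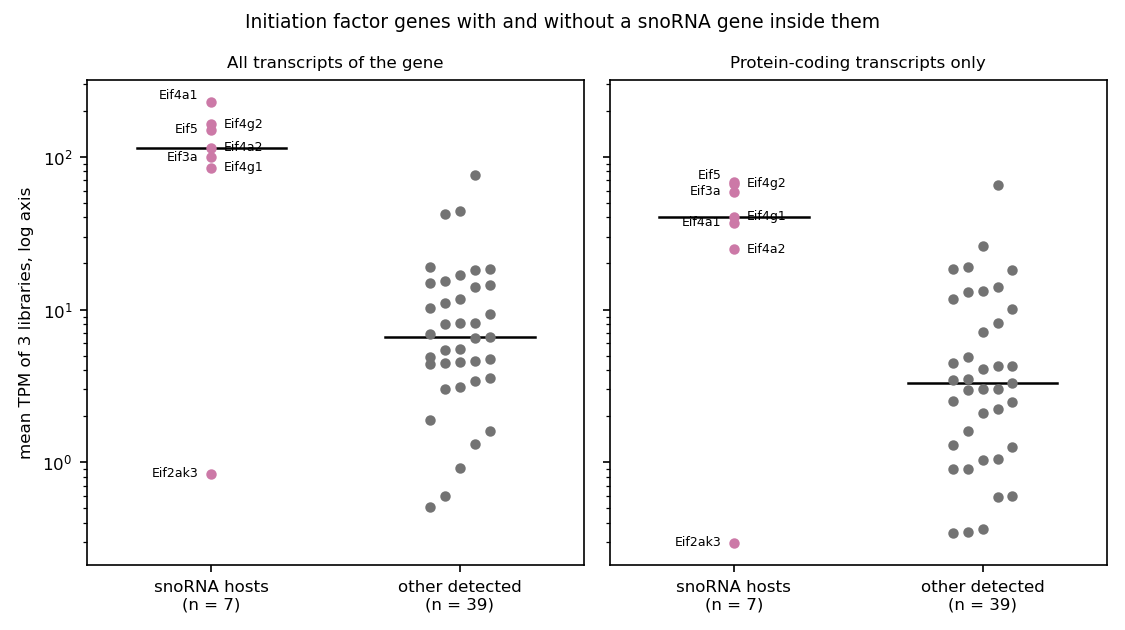
Mean TPM over 3 libraries of the detected initiation factor genes with a snoRNA gene inside them (n = 7) and of the other detected members (n = 39), on a log axis, for all transcripts of a gene (left) and for its protein-coding transcripts only (right); lines are medians. In both panels 6 of the hosts are among the 8 highest members, and the exception is Eif2ak3 at 0.84 TPM on the left.

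The snoRNA genes with the most counts are printed 5′ to 3′ on their own strand from GENCODE M21 (mm10), because they lie within the leading members. Capitals mark an ACA followed by at most 5 bases, where H/ACA snoRNAs carry that triplet. None was found there in Gm25835 and Gm23262. In every coding transcript that spans them, these genes lie in introns. Gm22988 lies at chr11:69669635-69669778 and Gm25835 at chr11:69668852-69668995, both within Eif4a1 on the minus strand. Gm26447 lies at chr16:23111301-23111429 within Eif4a2 on the plus strand, and Gm23262 at chr7:111076060-111076227 within Eif4g2 on the minus strand.
Gm22988: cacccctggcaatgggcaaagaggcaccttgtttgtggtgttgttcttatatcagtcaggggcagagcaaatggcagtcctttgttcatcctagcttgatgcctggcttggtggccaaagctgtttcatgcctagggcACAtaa
Gm25835: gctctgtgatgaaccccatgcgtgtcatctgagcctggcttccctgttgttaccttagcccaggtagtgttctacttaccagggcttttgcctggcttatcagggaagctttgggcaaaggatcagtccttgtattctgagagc
Gm26447: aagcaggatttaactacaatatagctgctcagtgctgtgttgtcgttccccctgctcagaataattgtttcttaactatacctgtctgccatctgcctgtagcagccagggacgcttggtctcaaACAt
Gm23262: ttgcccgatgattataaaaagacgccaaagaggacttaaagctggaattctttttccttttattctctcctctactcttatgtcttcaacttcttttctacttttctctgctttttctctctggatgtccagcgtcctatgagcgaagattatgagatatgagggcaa

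Gm22988 had 8732.2, 6452.4 and 4294.9 expected counts in replicates 1, 2 and 3, against 4221.2, 6316.9 and 4695.9 counts for the whole of its host Eif4a1. Gm25835, in the same host, had 1182, 4140 and 1381 counts, so the library with the most counts differed between 2 snoRNA genes of 1 host. Gm26447 had 1364.7, 4310.5 and 1883.8 counts and Gm23262 1159.5, 889.8 and 818.8 counts. Hosting did not always come with counts: among others, Snord2 in Eif4a2, Snord66 in Eif4g1 and Snora19 in Eif3a were listed at 0 in the first quantification. TPM of such short genes depends on the assumed fragment length, and counts only are given.

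Part of the members' counts had been assigned to annotated retained-intron transcripts. Summed over the 53 members this share was 28.5%, 24% and 23.6% in replicates 1, 2 and 3, or 25.3 ± 2.71%. Over all genes with a protein-coding transcript it was 27.7%, 21.2% and 22.2%, or 23.7 ± 3.51% (SD, n = 3 each). The members' share was thus slightly higher in each library. Of the 33 detected members with a retained-intron transcript, 11 (33.3%) had at least 50% of their counts in that class, against 25.7% of 6180 detected genes. The 5 with the largest share were 3 eIF3 subunits, Eif3l (84.3 ± 5.26%), Eif3i (81 ± 4.22%) and Eif3e (79.9 ± 4.74%), then Eif2s2 (71.1 ± 3.15%) and Eif4a1 (70.2 ± 1.15%; SD, n = 3 each). At the other end, Eif4g3 had 0.793 ± 0.179% and Eif4e 0.779 ± 0.715%. No retained-intron transcript of Eif3l, Eif4g3 or Eif4e held a whole intron of a coding transcript. Nor did any of Eif3k (62.1%), Eif2a (60.9%) or Eif4h (52.5%), which like Eif3l were among the 11. The shares of all these genes rest on the annotated class alone.

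**Figure D3:**
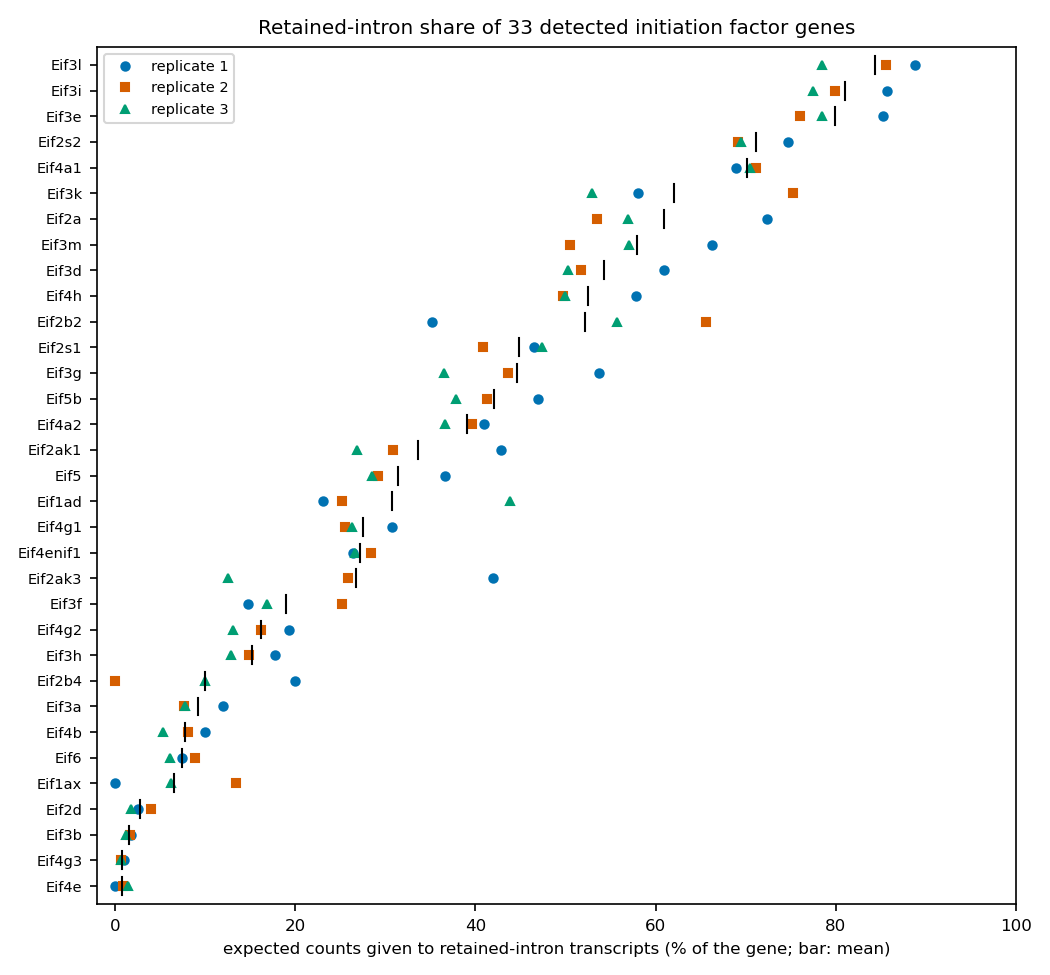
Share of a gene's expected counts given to retained-intron transcripts (x axis, percent) for the 33 detected initiation factor genes with such a transcript; points are libraries and bars are means. Eif4a1 keeps to 68.9 to 71.1% in the 3 libraries, while Eif2b2 runs from 35.2 to 65.6%.

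The transcript classes bear on the level of Eif4a1. Its transcript Eif4a1-202, which is 3167 bases long and retains 4 introns, took 2044.9, 2519.5 and 1934.0 counts, against 871.5, 1306.7 and 950.7 counts for the only protein-coding transcript, Eif4a1-213. By protein-coding transcripts alone Eif4a1 had 42.1, 33.1 and 35.9 TPM, which is 16.3% of its gene-level TPM, and it ranked 6th and not 1st among the members. The rest lay in processed transcripts without an open reading frame as well as in the retained-intron class. Eif3l kept less of its TPM in protein-coding transcripts (13.1%), and Eif2b2 (19.1%) and Eif4a2 (21.6%) little more. By the same measure Eif5 led with 68.6 TPM, followed by Eif4g2 with 66.5 TPM and Eif4g3 with 64.8 TPM. The longest intron retained in Eif4a1-202, of 886 bases, contains Gm22988. Its 2 shortest are printed below from GENCODE M21 (mm10, minus strand, 5′ to 3′), with the splice-site dinucleotides in capitals. They lie at chr11:69668334-69668404 and chr11:69668549-69668643.
Eif4a1 intron of 71 bases: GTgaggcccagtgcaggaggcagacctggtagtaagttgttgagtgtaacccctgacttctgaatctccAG
Eif4a1 intron of 95 bases: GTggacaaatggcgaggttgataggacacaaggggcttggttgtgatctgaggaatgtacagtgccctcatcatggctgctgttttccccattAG

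Neither of these 2 introns contains an annotated small RNA gene. Another retained-intron transcript of Eif4a1, 1845 bases long, which retains the shorter of them and not the intron with Gm22988, took 596.4, 1497.1 and 1023.7 counts. In the annotation, 40 introns of coding transcripts in 18 members lay whole inside an exon of a retained-intron transcript, whatever its counts. They were 71 to 3257 bases long, with a median of 237 bases. Of these, 39 had GT and AG at their ends and 1, in Eif5b, had GC and AG, and 5 held a small RNA gene.

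Promoter sequence was searched for motifs chosen with earlier values of the members known, so the shares are descriptions. RefSeq promoters (GRCm38.p6, the same assembly as mm10), which run from 250 bases before to 50 bases after the start, were matched for 41 of the 53 members. CACGTG, the E-box bound by MYC and related factors and its own reverse complement, was found in 10 of these 41 members. That was 12 of 54 member windows (22.2%), against 7.15% of 32851 windows of all genes. The 10 were Eif1b, Eif3a, Eif3f, Eif3k, Eif4a1, Eif4e, Eif4g1, Eif4h, Eif5a and Eif5a2, while the paralogs Eif4a2, Eif4e2 and Eif4g3 had matched windows without the motif. For Eif4a1, Eif4e and Eif4g1, which encode subunits of eIF4F, and for the cofactor Eif4h, 66 bases around the motif are shown 5′ to 3′ on the gene's strand, with the motif in capitals. Eif4a1 (chr11:69672577-69672642, minus strand) has it 189 bases before the RefSeq start, Eif4e (chr3:138527174-138527239, plus strand) 64 bases, Eif4g1 (chr16:20672643-20672708, plus strand) 54 bases and Eif4h (chr5:134639470-134639535, minus strand) 96 bases before it.
Eif4a1: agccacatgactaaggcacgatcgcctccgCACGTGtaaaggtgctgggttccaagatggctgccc
Eif4e: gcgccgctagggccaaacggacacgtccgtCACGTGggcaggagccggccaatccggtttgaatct
Eif4g1: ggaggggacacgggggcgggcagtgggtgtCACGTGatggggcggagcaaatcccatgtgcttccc
Eif4h: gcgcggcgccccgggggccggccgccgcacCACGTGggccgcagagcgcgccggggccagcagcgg

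Members with CACGTG had a median of 12.4 TPM and ranged from 0.07 to 227.6 TPM, and the 31 matched members without it had a median of 6.47 TPM and ranged from 0.51 to 149.6 TPM, so the levels overlapped almost wholly. CCGGAAG, the core bound by ETS factors, was searched on both strands and found in 35.2% of member windows, against 8.86% of all windows. By gene, 16 of the 41 matched members had it, and so did 24 of 57 matched cytoplasmic ribosomal protein genes. Its high share was therefore not particular to the members. CACGTG was found in 6 of those 57 genes. AAGATGG, the core bound by YY1, was found on either strand in 9.26% of member windows and 6.34% of all windows. TATAAA, on either strand, was found in 5.56% of member windows and 13.6% of all windows. The NF-kB consensus, searched on both strands, was found in 1 member, Eif2ak4, or 1.85% of member windows, against 8.46% of all windows. A match describes letters in a window and is no evidence of binding.

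Differences between libraries were taken from CPM (the count as a share of the library's scaled total) after TMM scaling, which sets the bulk of genes equal between libraries. Of 49 members that averaged 10 or more counts, 21 (42.9%) ranged at least 1.5-fold over the 3 libraries, against 48.4% of 10298 genes, so the members varied about as much as other genes. Without replicate 1, 4 members ranged that far (8.16%, against 14.1% of all genes), and without replicate 2, 13 did (26.5%, against 30.4%). Without replicate 3, 20 did (40.8%, against 37.7%). As a group the members moved little: their median log2 difference from the mean of the 3 libraries was -0.05, 0.05 and -0.04 in replicates 1, 2 and 3, beside -0.07, 0.05 and 0.04 for all genes. The smallest ranges of this CPM were in Eif2ak1 (1.03-fold), Eif4g2 (1.07-fold) and Eif4a2 (1.08-fold). In TPM the same genes ranged 1.89-fold, 1.88-fold and 1.35-fold, so the small ranges hold for TMM-scaled counts only.

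**Figure D4:**
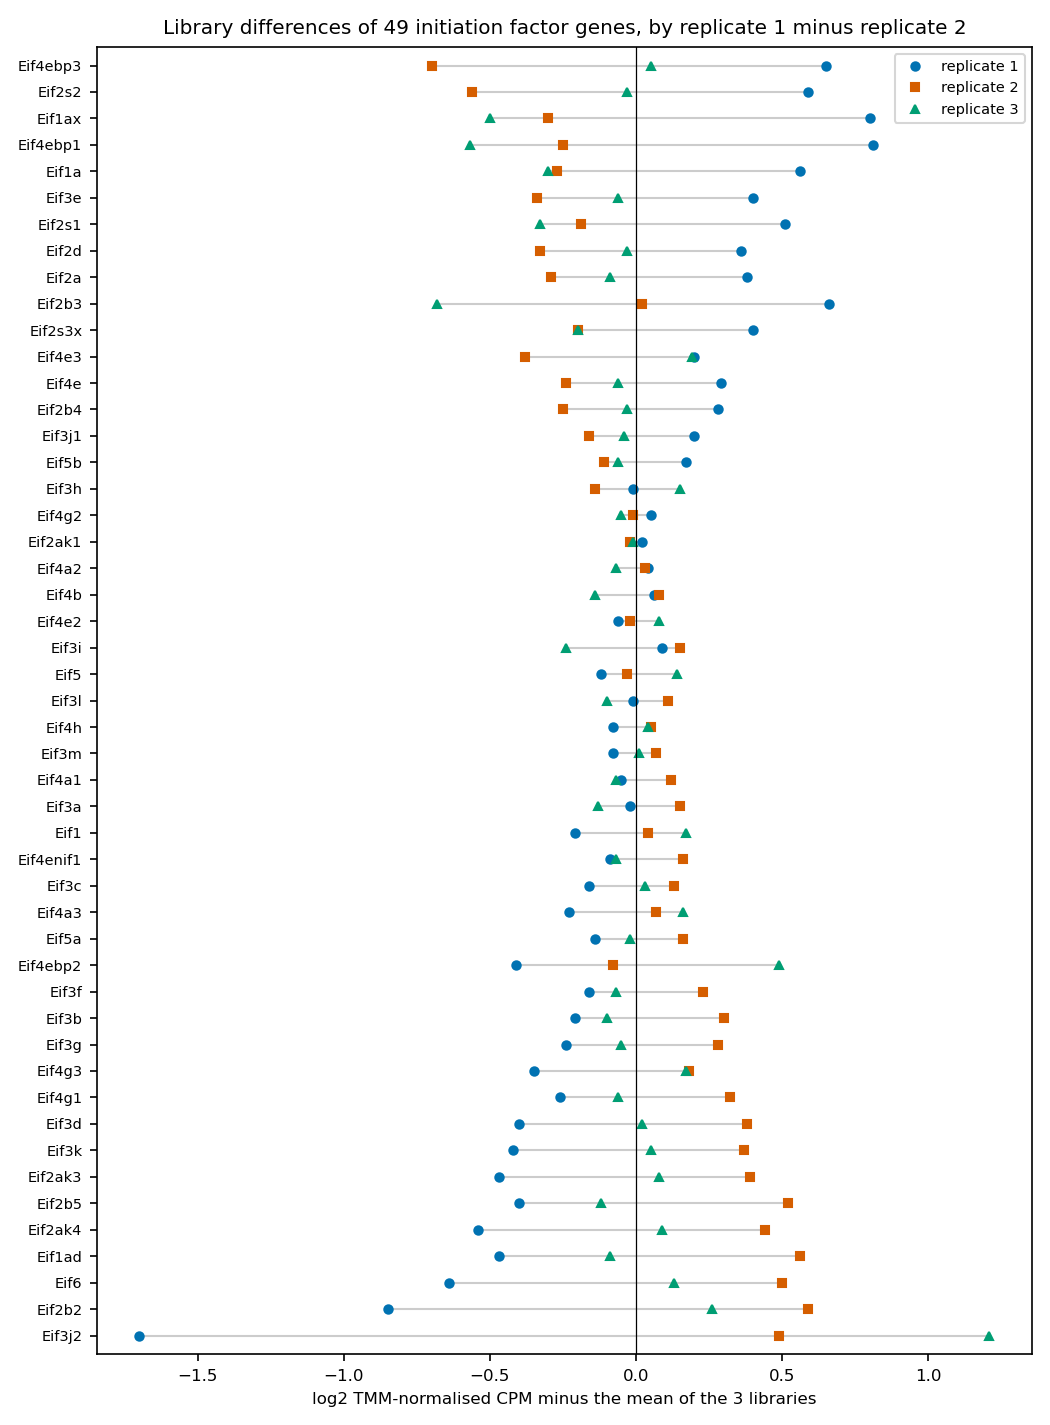
Log2 TMM-normalised CPM minus the mean of the 3 libraries (x axis) for the 49 initiation factor genes that averaged 10 or more counts, ordered by replicate 1 minus replicate 2. The 3 eIF2 subunit genes, Eif2a and Eif2d lie among the members highest in replicate 1. The eIF2B genes lie on both sides, with Eif2b3 and Eif2b4 higher in replicate 1 and Eif2b2 and Eif2b5 lower. For Eif2b3 and Eif2b4 the counting interval of the ratio of replicate 1 to replicate 2 includes 1.

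Replicate 1 differed from replicate 2 in both directions. At least 1.5-fold higher in replicate 1 were 11 members (22.4%, against 13.2% of all genes), and at least 1.5-fold lower were 9 members (18.4%, against 24.4%). The 11 were Eif1a, Eif1ax, Eif2a, Eif2b3, Eif2d, Eif2s1, Eif2s2, Eif2s3x, Eif3e, Eif4ebp1 and Eif4ebp3, and for 9 of them the exact 95% counting interval of the ratio excluded 1, the exceptions being Eif2b3 and Eif4ebp1. The 9 lower ones were Eif1ad, Eif2ak3, Eif2ak4, Eif2b2, Eif2b5, Eif3d, Eif3j2, Eif3k and Eif6, all with intervals that excluded 1. The 11 included all 3 subunits of eIF2 and the alternative tRNA carriers Eif2a and Eif2d. Point estimates for the eIF2B genes went both ways. Ratios of replicate 1 to replicate 2 were 1.56 for Eif2b3 and 1.47 for Eif2b4, both with intervals that included 1. They were 0.365 for Eif2b2 and 0.525 for Eif2b5. Eif2b4 had 11, 10.1 and 10 expected counts. In the second quantification it was lower in replicate 1 than in replicate 2 (log2 difference -0.43). Of the kinases, Eif2ak3 (ratio 0.54) and Eif2ak4 (0.506) were lower in replicate 1. Eif2ak1 was nearly equal, at 1.02 (counting interval 0.644 to 1.61). The direction also depended on the scale: in TPM, Eif1ax of the 11 was lower in replicate 1 (1.7 against 2.44 TPM), and Eif2ak3 (0.88 against 0.56 TPM) and Eif3k (3.3 against 3.16 TPM) of the 9 were higher.

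Values by library are given for the eIF2 subunits and for members that differed the other way. Eif2s2 had 71.6, 32.1 and 46.5 CPM in replicates 1, 2 and 3, and the ratio of replicate 1 to replicate 2 was 2.23 (counting interval 2 to 2.49). Eif2s1 had 22.4, 13.8 and 12.5 CPM, a ratio of 1.62 (1.35 to 1.94), and Eif2s3x had 21.4, 14.1 and 14.0 CPM, a ratio of 1.52 (1.27 to 1.83). Opposite-strand neighbours touch part of this group: Serp1, which overlaps Eif2a, had 466.0, 277.0 and 322.0 counts, and Rassf5, which overlaps Eif2d, had 179.0, 146.0 and 160.0 counts. Their part in the values was not tested. In the opposite direction, Eif2b2 had 2.21, 6.07 and 4.85 CPM, a ratio of 0.365 (0.229 to 0.563), and Eif2ak4 had 58.2, 115.0 and 90.1 CPM, a ratio of 0.506 (0.464 to 0.552). These intervals cover counting error only, and with 1 library on each side they compare libraries and not conditions. The calls depend in part on the table. In the second quantification all 11 higher members kept that direction but 6 of them passed 1.5-fold. Eif2s1 (log2 difference 0.37), Eif2s3x (0.49) and Eif2a (0.36) were among those that did not. Of the 9 lower members, 8 kept their direction and passed 1.5-fold. The exception, Eif3j2, had a log2 difference of 0.19 in that quantification. There, 6 members in all were higher (11.3%, against 11.9% of all genes) and 11 lower (20.8%, against 19.5%), shares near the background. Input amount, depth and rDNA-like share differed together between these libraries and cannot be told apart from the replicate.

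The largest ranges were 7.53-fold in Eif3j2, 2.71-fold in Eif2b2, 2.6-fold in Eif4ebp1, 2.56-fold in Eif4ebp3 and 2.53-fold in Eif2b3. Most of these rest on few counts: Eif3j2 had 2.94, 20.6 and 28.8 expected counts, Eif4ebp1 19, 12 and 8, and Eif2b3 14, 12 and 6, while Eif2b2 had 27, 99 and 67. The split of counts between Eif3j2 and Eif3j1 is also uncertain. In the second quantification Eif3j2 had 7.12, 6.25 and 6.59 CPM in replicates 1, 2 and 3, so its large range holds for the first quantification only. Replicate 1 against replicate 3 gave 8 members at least 1.5-fold higher (background 10%) and 5 lower (background 20.5%), and all 8 were among the 11 that were higher against replicate 2. The interval included 1 for 2 of the 8, Eif2b3 and Eif4ebp3. Replicate 2 against replicate 3 gave 3 members higher (background 6.55%) and 2 lower (background 7.21%), so fewest members differed between these libraries.

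The level of a member depended on which of the deposited quantifications was read. Over the 46 detected members, log2 TPM of the second and first quantification had a Pearson r of 0.97 (Spearman rho 0.95) across genes, which are not independent replicates and share the same reads. In the second quantification 28 members (60.9%, against 58.2% of all detected genes) were at least 1.5-fold higher and 0 were at least 1.5-fold lower (background 0.176%). Genes with a protein-coding transcript took 41.6%, 28.8% and 31.9% of TPM in the second quantification and 22.3%, 16.4% and 20.4% in the first. When both were rescaled to that sum, 5 members (10.9%, against 18.9% of detected genes) stayed past 1.5-fold: Eif4e, Eif2a, Eif6, Eif4ebp3 and Eif1ax.

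**Figure D5:**
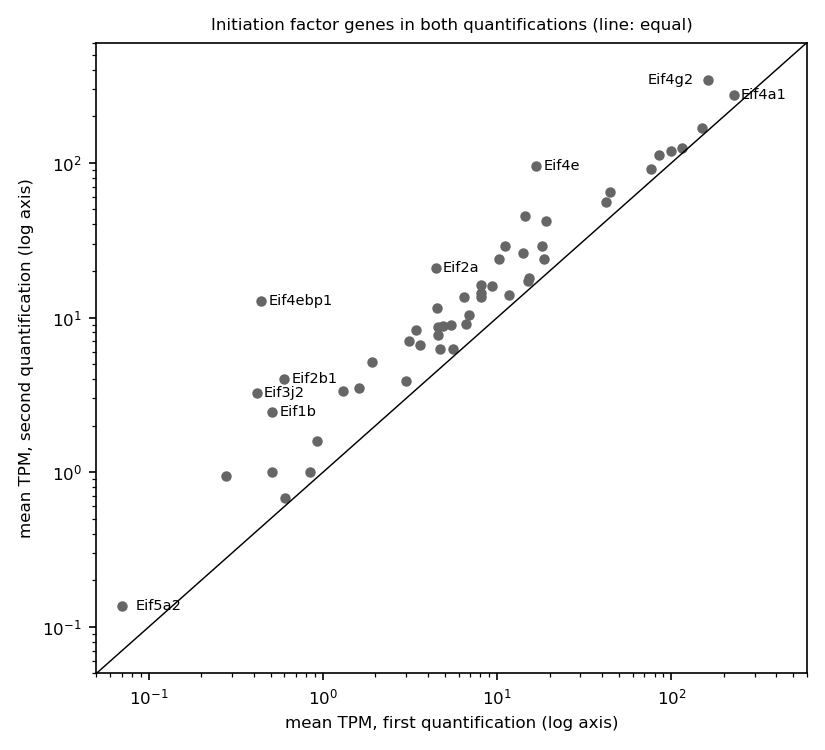
Mean TPM over 3 libraries in the second quantification (y axis) against the first (x axis) for the initiation factor genes above 0 TPM in the first, both on log axes; the line marks equal values. All points lie above the line, and Eif4ebp1 (12.8 and 0.443 TPM) and Eif4e (94.8 and 16.8 TPM) lie far from it.

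Among members above 0 TPM in the first quantification, Eif4ebp1 depended most on this choice, with a ratio of second to first of 28.8. Eif3j2 (7.85-fold), Eif2b1 (6.72-fold), Eif4e (5.65-fold) and Eif1b (4.79-fold) came next. Eif4e had 110.6, 79.6 and 94.2 TPM in the second quantification and 16.6, 14.4 and 19.3 TPM in the first, which would place it 7th or 13th among the members. A large part of the difference lay in Eif4e-203, a retained-intron transcript of 292 bases, which had 49.4, 44.4 and 55.4 TPM in the second and 0, 3.25 and 7.18 TPM in the first. Eif4ebp1 had 502.8, 443.5 and 475.2 estimated counts in the second and 19, 12 and 8 in the first. Eif4e1b, at 0 counts in the first, had 155.9, 255.9 and 202.5 estimated counts in the second. Whether these 3 genes, Eif4e, Eif4ebp1 and Eif4e1b, were high or low on chromatin therefore cannot be read from these tables alone. Other genes of cap binding and its control differed less, with ratios of 1.12 for Eif4ebp2, 1.29 for Eif4e3 and 2.22 for Eif4e2. The smallest ratios were in Eif4a2 (1.08-fold), Eif4ebp2 and Eif2b2 (1.12-fold each), Eif5 (1.13-fold) and Eif2ak4 (1.15-fold).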

How the data were processed

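Ribosomal RNA-depleted RNA-seq of chromatin RNA was analysed for 3 libraries of 1 group. The deposited gene and transcript tables of the first quantification held the authors' expected counts and TPM (per the file headers) with a posterior SD of each count, called assignment error above. A second deposited transcript table held estimated counts and TPM, summed here per gene. Deposited notes name GENCODE M21 on mm10. The aligner, quantification tools, versions and strand setting are not given in the sources used here, so reads of overlapping genes cannot be told apart. Rows naming no mouse gene (1.279%, 0.427% and 0.383% of counts in replicates 1, 2 and 3) were left out.

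Expected counts were rounded for TMM scaling in edgeR 4.0.16 (R 4.3.3), with 0.5 added before the log. DESeq2 1.42.0 gave size factors for an alternative only. The steps were tested on simulated data. Detection was at least 10 expected counts in each library. Intervals of ratios are exact (Clopper-Pearson) 95% intervals of counting error, and no molecular identifiers are stated. Sequences came from GENCODE M21 and RefSeq. The members, functional groups and lists were chosen with earlier results of these data known. Named by rule were the highest and lowest member of each group, the extremes of library range, quantification ratio and retained-intron share, and paralog sets; others, such as Eif3c, Eif4h, Eif6, Eif2s1 and the transcripts, were named after their values were seen. The motifs searched, the levels of snoRNA hosts and the level over protein-coding transcripts were chosen after the data had been seen.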

Additional observations from a re-analysis of the deposited data

How the results depend on the processing

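No paired analysis was possible because there is 1 group. The median member level of 6.07 TPM was 12.1 TPM in the second quantification, 30.7 TPM when rescaled to genes with a protein-coding transcript and 7.93 TPM over detected members only, and 5.56 to 6.7 TPM with a replicate left out. Rescaling multiplies all members of a library alike. The number detected stayed between 43 and 52 under every alternative. The 21 members past a 1.5-fold range were 9 at 2-fold and 4 to 20 with a replicate left out. Under the other alternatives they were 14 to 24. Shares of all genes were 14.1%, 30.4% and 37.7% without replicates 1, 2 and 3. They were 48.5% with DESeq2 size factors, 50.4% with library totals and 42.3% in the second quantification. For 2-fold and for other count limits no share of all genes was computed. Under scaling to library totals the members' shifts were 0.17, -0.07 and -0.14 in replicates 1, 2 and 3, beside 0.14, -0.06 and -0.06 for all genes. Under that scaling 16 members were higher in replicate 1 than in replicate 2 (27.5% of all genes) and 6 lower (11.4%), and in the second quantification 6 were higher (11.9% of all genes) and 11 lower (19.5%). The retained-intron share of 25.3% was 40.4% by TPM, and 23.8 to 26.2% with a replicate left out. By TPM 19 of 33 members passed 50% (57.6%, against 37.7% of all genes), and the share over all genes was 37.4%. The host median of 114.4 TPM was 40.4 TPM over protein-coding transcripts and 105.9 to 123.0 TPM with a replicate left out. The 28 members higher in the second quantification were 5 after rescaling. Of the named members 28 of 38, and all 11 group medians, moved by more than 1 SD in the second quantification. Leaving out 1 of 3 values cannot move a mean that far, so it says nothing on their stability. All alternatives for the host median, for the counts of members higher in the second quantification or past 50% retained introns, and for replicate 1 against replicate 2 were chosen after seeing the data. The causes were not tested. Ratios of members under about 20 counts rest on few reads.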

Other observations

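Transcripts annotated as targets of nonsense-mediated decay, the pathway that destroys messages with early stop codons, took little of the members' counts: 1.56 ± 0.125% summed over the 53 members, against 3.09 ± 0.128% over all genes with a protein-coding transcript (SD, n = 3 each). Eif2d, a carrier of tRNA that can work without eIF2, had the largest share. It had 74.7%, 65.5% and 67.2% of its counts in that class in replicates 1, 2 and 3. Most of these lay in Eif2d-204, a transcript of 3465 bases with 168.9, 90.8 and 115.6 counts. Eif2d overlaps Rassf5 on the opposite strand, and the part of that overlap in the value was not tested. Eif4a2 had 6.5%, 12.4% and 15.2% of its counts in that class. Eif2a had 27.6%, 0% and 0.109%, and Eif3k 7.48%, 5.88% and 10%. Eif2b1, which was not detected, averaged 8.47%.

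Members with more annotated transcripts had higher levels: across the 46 detected members, log2 TPM and the number of annotated transcripts had a Pearson r of 0.59 (Spearman rho 0.58). The number of exons gave r = 0.31, the gene's span r = -0.06 and the retained-intron share, over 33 members, r = -0.02. These are correlations across genes of the same libraries, and genes are not independent replicates. TPM summed over transcripts depends on which transcripts are annotated, and its part in the first value was not tested.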
